A study of Drosophila melanogaster with 33 samples.

Results

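The locus described here is a window of 160 kb on arm 2L of Drosophila melanogaster, from 12400000 to 12560000 on genome build dm3, which holds the gene bun (bunched). The window was chosen by its many HA-AbdA peaks in these same data, so the number and density of those peaks are a description and have no test. It held 242 of the 94396 peaks in the 13 deposited peak lists of the series. The study mapped the binding of HA-tagged AbdA and of 6 other proteins in S2-AbdA cells, which are S2-DRSC cells stably transfected with HA::AbdA, and of the same 6 proteins in the parental S2-DRSC cells, called S2 cells below. AbdA (Abdominal-A) is a Hox protein that sets the identity of abdominal segments, and the S2-DRSC line comes from late embryos. Both lines were kept in Schneider medium with serum and had 10 µM copper sulphate for 24 h before chromatin was prepared. The labels do not say whether the transfected line is a single clone.

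bun encodes leucine-zipper proteins of the TSC22-domain family and is known for its roles in growth, eye development and the patterning of the egg chamber. A Hox protein such as AbdA binds short sites in DNA and acts on transcription together with other factors at enhancers and promoters. The factors mapped beside it here represent separate layers of that control. Rpb3 belongs to the core of RNA polymerase II, and Pol II Ser2P is the polymerase phosphorylated on serine 2 of its tail repeats, the form that elongates transcripts. M1BP binds the Motif 1 element of promoters, and GAF (GAGA factor) binds GA-rich DNA at promoters and Polycomb sites. Both remaining proteins belong to the Polycomb system of gene silencing. dRing is part of PRC1, and PRC2 methylates histone H3 through its enzyme E(z).

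Each of the 13 antibody and line pairs used here had 2 replicates but 1 deposited list, so no result below has a spread between replicates and none has a test. The labels do not say whether the replicates were separate cultures. Without read counts in the lists, depth cannot be given for any sample, and a peak that is missing from a list is not shown to be an absence of binding. Peak scores are the authors' own, in an unstated unit, and serve only to rank peaks within 1 list. No list of the HA antibody in cells without AbdA was used here, so the background of that antibody at this locus was not analysed.

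By the approximate bounds given with the choice of the locus, bun begins 55 kb above the lower end of the window and ends at 147 kb. That leaves 55 kb of other sequence below the gene and 13 kb above it. In the Ensembl annotation of Release 6 bun lies on the minus strand, with 10 transcripts that have 7 different 5′ ends, so with that orientation the lower 55 kb lie beyond the 3′ end and the upper 13 kb before the first start. In the gene order of Release 6 the nearest genes on the lower side are the pseudogene CR17024, CG5418, Oatp33Eb, CG5421 and Oatp33Ea. After these come eRF3, which encodes a translation termination factor, and SC35, which encodes a splicing factor. On the upper side 4 lncRNA genes precede nub, which encodes a POU-domain transcription factor, and 5 genes are nested within bun, mir-967 and t-cup among them. The peaks are on dm3 and this annotation is not, so no peak was assigned to a start site, exon or intron and no sequence was read at a peak.

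HA-AbdA peaks lay along the length of bun. The window held 43 of them, or 26.87 per 100 kb, and the rest of arm 2L held 8.42 per 100 kb. They covered 57.1 kb, or 35.7% of the window, against 9.73% of the rest of arm 2L. Of the 43 peaks, 8 lay wholly below bun and 35 lay in bun or across its lower edge. Within the 92 kb of bun the peaks covered 44.3 kb, or 48.1%, and in the 55 kb below it they covered 23.2%. The peak nearest to the window on its lower side lay 19.2 kb away, at 12380179 to 12380825 (score 41.9), and the nearest on the upper side lay 8.2 kb away, at 12568242 to 12568655 (score 25.8). The first and the last peak inside lay at 12403359 to 12405090 (score 45.4) and at 12546086 to 12546948 (score 109).

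**Figure D1:**
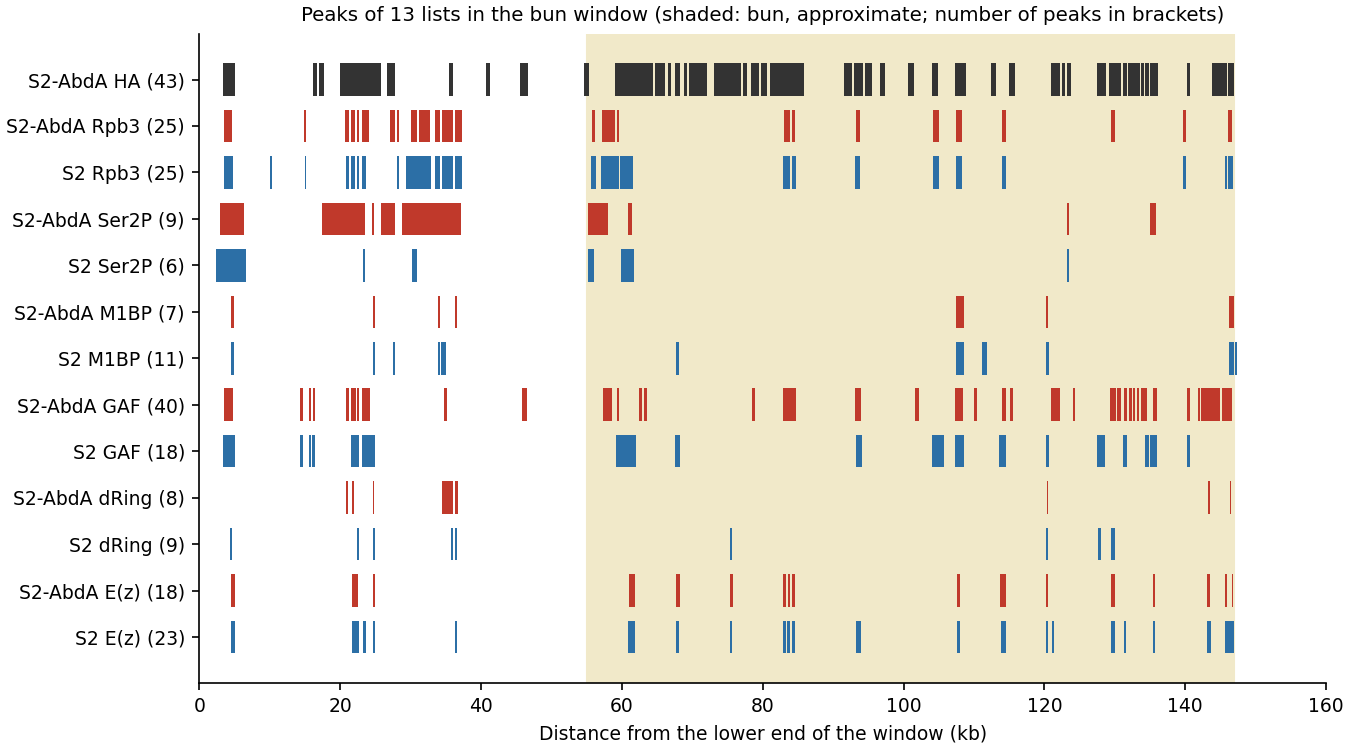
Peaks of the 13 deposited lists along the bun window, drawn to scale against the distance from the lower end of the window in kb. Black bars are HA-AbdA peaks, red bars factor peaks of S2-AbdA cells and blue bars factor peaks of S2 cells, and the shaded stretch is bun by its approximate bounds. HA-AbdA peaks run through most of the shaded stretch, whereas all lists but that of M1BP in S2 cells are empty in the upper 13 kb.

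The peaks were closely spaced but of ordinary size and strength for this list. Their width had a lowest value of 352 bp, a median of 864 bp and a highest value of 5718 bp, and the median of the 10269 HA-AbdA peaks elsewhere on the arms was 836 bp. In the window 14% of the peaks were at least 2000 bp wide, and elsewhere on the arms 13.2% were. These 6 wide peaks together spanned 24.4 kb. The score had a lowest value of 12.2, a median of 39.2 and a highest value of 200, and the median elsewhere on the arms was 36.7. Of the 43 peaks, 22 belonged to the higher-scoring 50% of the list and 5 to its top 10%. The gap to the next peak was under 1000 bp in 24 of 42 cases, with a median of 580.5 bp, and the widest gap was 11.0 kb, between the first and the second peak of the window.

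The highest-scoring HA-AbdA peak lay at 12527468 to 12528714 (score 200, rank 45 of 10352 in the list), in the upper part of bun. It overlapped no factor peak of S2-AbdA cells but a GAF and a dRing peak of S2 cells. The peak next to it at 12529246 to 12530872 (score 186) overlapped Rpb3, GAF and E(z) in S2-AbdA cells and dRing and E(z) in S2 cells. A further peak of this group, at 12531860 to 12533580 (score 120), lay on GAF in S2-AbdA cells and on no factor in S2 cells. All 3 belonged to a run of 7 closely spaced HA-AbdA peaks that ended at 12536154.

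At the upper end of bun, the peak at 12546086 to 12546948 (score 109) overlapped all factors except Ser2P in S2-AbdA cells, and Rpb3, M1BP and E(z) in S2 cells. Its neighbour at 12543843 to 12545904 (score 83.9) lay on E(z) in both lines, on GAF in S2-AbdA cells only and on Rpb3 in S2 cells only. In the lower part of bun, a narrow peak at 12467552 to 12468297 (score 126) overlapped only E(z) in S2-AbdA cells, but M1BP, GAF and E(z) in S2 cells. The peak at 12504002 to 12504943 (score 86.6) lay on Rpb3 in both lines and on GAF in S2 cells. The peak at 12514947 to 12515815 (score 66.2) lay on GAF of S2-AbdA cells alone. Of the 10 highest peaks, 9 lay in bun, and the exception was also the widest peak of the window, at 12420022 to 12425739 (score 76.0). That peak overlapped all 6 factors in both lines, the one HA-AbdA peak of the window that did so. It is 5718 bp wide, and its factor peaks did not all overlap each other. The M1BP peak of S2-AbdA cells at 12424626 to 12424919 lay off Rpb3.

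**Figure D2:**
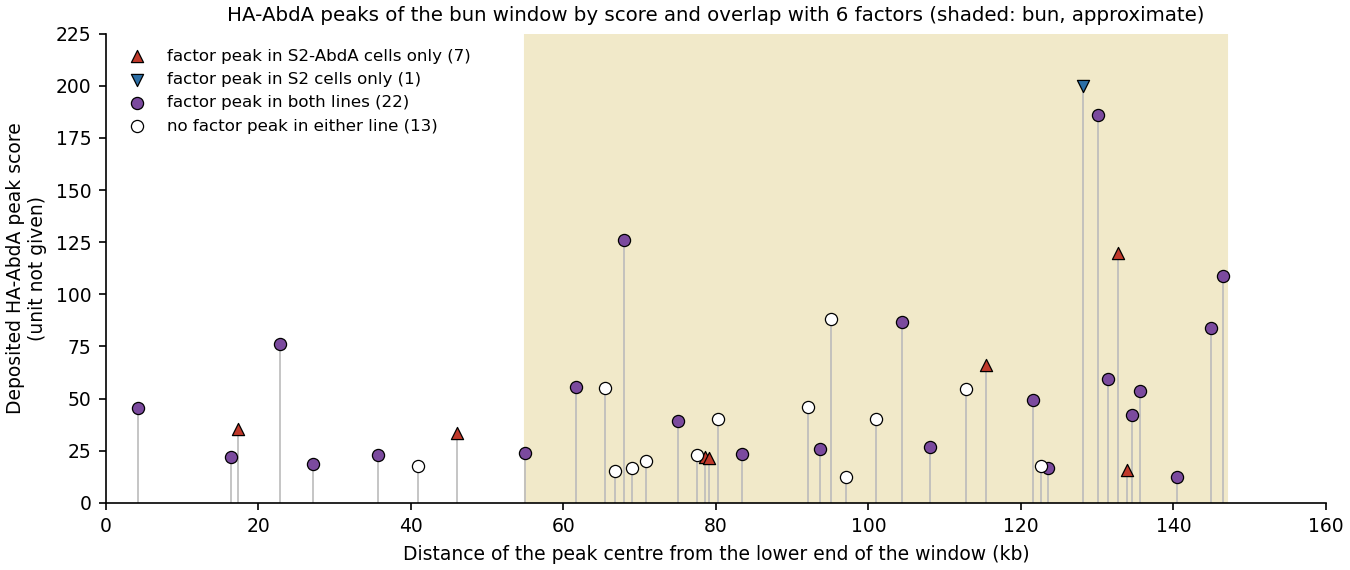
Deposited score of each of the 43 HA-AbdA peaks (vertical axis, unit not given) against the distance of its centre from the lower end of the window in kb, with the symbol giving the lines in which any of the 6 factors had an overlapping peak. The peak of score 200 is the one with factor peaks in S2 cells only, and open circles, the peaks on no factor, reach a score of 88.4.

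In the window 13 HA-AbdA peaks, or 30.2%, overlapped no factor in either line, and elsewhere on the arms 25.4% did. Of these 13, 12 lay in bun. Their median score was 23.1 and their median width 685 bp, while the 30 peaks on a factor had a median score of 40.7 and a median width of 1044 bp. A wider peak meets the overlap of 1 bp more easily, and the same split was not made elsewhere on the arms. The 5 peaks on no factor with the highest scores lay at 12494569 to 12495573 (88.4), 12464768 to 12466131 (55.1), 12512432 to 12513116 (54.5), 12491482 to 12492732 (46.1) and 12479814 to 12480631 (40.4). HA-AbdA peaks without a factor were thus found among the stronger peaks of the locus as well as among its weakest, the lowest being the peak at 12496687 to 12497340 (12.2). Any factor was present in S2-AbdA cells only at 7 peaks (16.3%, elsewhere on the arms 8.59%), in both lines at 22 (51.2%, elsewhere 63.0%) and in S2 cells only at 1 (2.33%, elsewhere 3.01%). The S2-AbdA lists of GAF, Ser2P and dRing are the longer ones in the whole genome, and the part of list length in these shares was not tested. Of the 7 peaks with a factor in S2-AbdA cells only, that at 12416912 lay on Ser2P alone and all others on GAF alone. Those at 12478317 and 12478811 overlapped the same GAF peak, at 12478509 to 12478952.

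Rpb3 and M1BP lay at a smaller share of these HA-AbdA peaks than of those elsewhere on the arms in both lines. Rpb3 of S2-AbdA cells lay at 11 of the 43 peaks (25.6%) and elsewhere on the arms at 45.7%. Rpb3 of S2 cells lay at 10 (23.3%) and elsewhere at 47.5%. For M1BP the counts were 4 (9.3%, elsewhere 29.4%) in S2-AbdA cells and 6 (14%, elsewhere 33.0%) in S2 cells. Ser2P lay at 9 peaks (20.9%, elsewhere 26.2%) in S2-AbdA cells and at 5 (11.6%, elsewhere 11.4%) in S2 cells. None of these shares was tested, because the peaks of 1 locus are not replicates.

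The share of HA-AbdA peaks on E(z) was somewhat above that on the arms in each line. For GAF it was somewhat above the arms in S2-AbdA cells and close to them in S2 cells. GAF of S2-AbdA cells lay at 21 peaks (48.8%) and elsewhere on the arms at 42.5%, and GAF of S2 cells lay at 13 (30.2%) and elsewhere at 28.2%. E(z) of S2-AbdA cells lay at 11 peaks (25.6%, elsewhere 20.7%) and E(z) of S2 cells at 14 (32.6%, elsewhere 23.7%). dRing, the other Polycomb protein, lay at 3 peaks (6.98%, elsewhere 17.9%) in S2-AbdA cells and at 6 (14%, elsewhere 15.6%) in S2 cells. A Polycomb factor of either kind lay at 12 HA-AbdA peaks in S2-AbdA cells (27.9%, elsewhere 29.0%) and at 16 in S2 cells (37.2%, elsewhere 28.2%). When all lists were limited to their higher-scoring 50%, GAF of S2 cells lay at 22.7% of the 22 remaining HA-AbdA peaks and elsewhere at 23.6%, so its order turned round. For GAF, dRing and Ser2P in S2 cells the share in the window was close to that on the arms.

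Along the gene, the share of each 10 kb bin covered by HA-AbdA peaks was highest in the lower part of bun. It reached 77.5% at 60 to 70 kb and 77.2% at 70 to 80 kb from the lower end of the window, and the bin at 20 to 30 kb, below bun, had 68.6%. From 80 kb on the share was 54.0%, 42.7%, 33.7% and 15.5% in successive bins, and then 42.3%, 53.3% and 33.4% up to 150 kb. These 2 highest bins in bun differed in factor coverage. At 60 to 70 kb GAF covered 7.54% in S2-AbdA cells and 27.4% in S2 cells, E(z) 15.2% in S2-AbdA cells and 14.5% in S2 cells, Ser2P 4.96% in S2-AbdA cells and 17.5% in S2 cells, and Rpb3 none in S2-AbdA cells and 15.6% in S2 cells. At 70 to 80 kb Rpb3, Ser2P and M1BP had none in either line, GAF covered 4.44% in S2-AbdA cells and none in S2 cells, and E(z) covered 4.02% in S2-AbdA cells and 3.14% in S2 cells. Over the 16 bins, which are neighbours in 1 locus, the rank correlation of HA-AbdA coverage was 0.60 with E(z) of S2-AbdA cells and 0.63 with E(z) of S2 cells. With the other factors it was weaker, at most 0.37, for GAF of S2 cells.

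**Figure D3:**
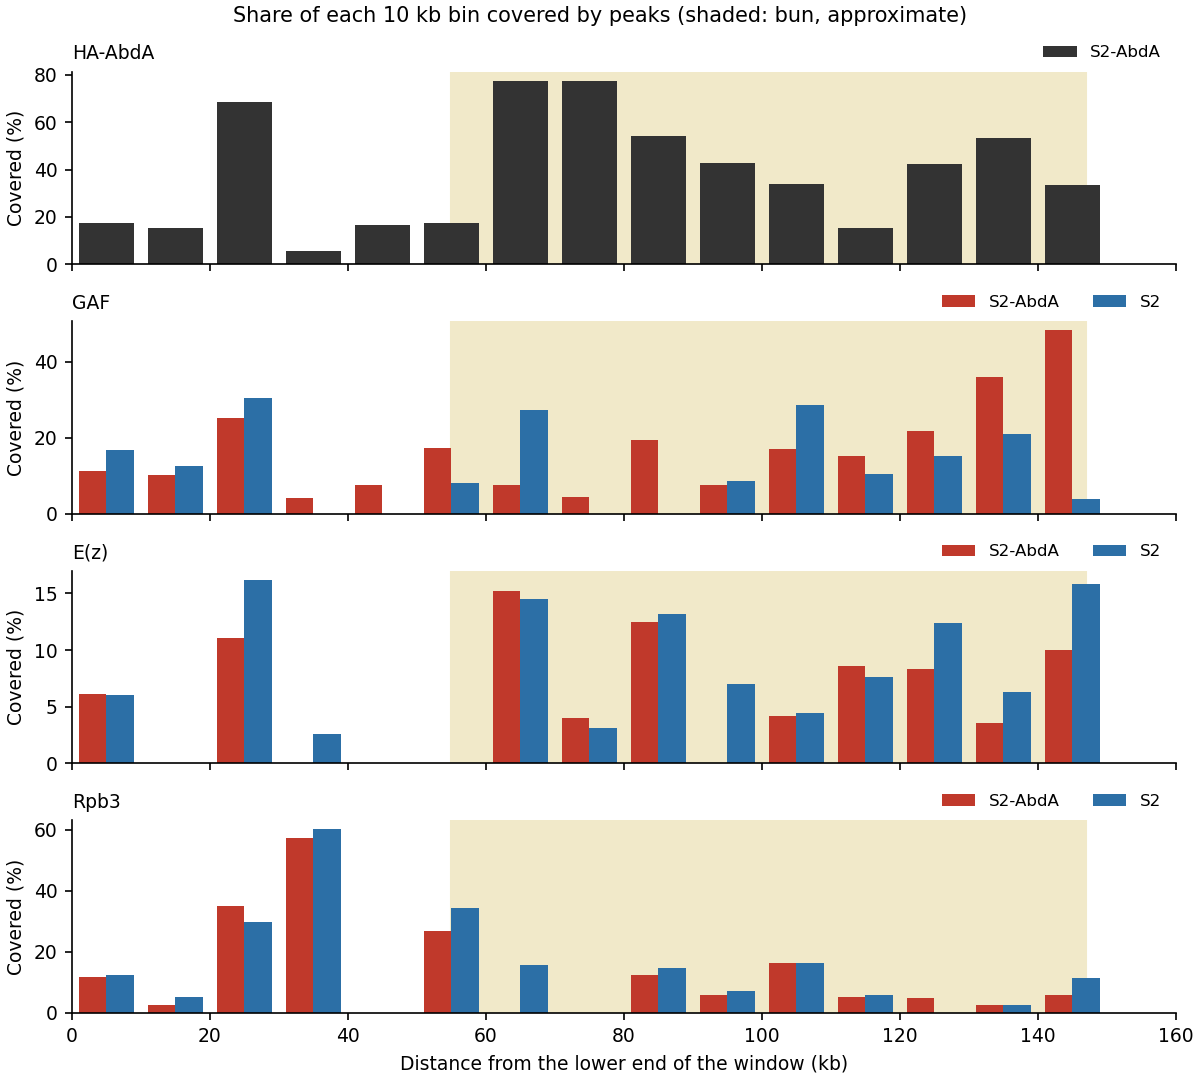
Share of each 10 kb bin of the window covered by peaks of HA-AbdA, GAF, E(z) and Rpb3 (vertical axes in percent, with their own scales), with HA-AbdA in black, the factors of S2-AbdA cells in red and those of S2 cells in blue. HA-AbdA reaches 77.5% in the lower part of bun, whereas GAF of S2-AbdA cells reaches its 48.3% at 140 to 150 kb, where GAF of S2 cells covers 3.97%.

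GAF was the factor whose lists differed most in number between the lines. The window held 40 GAF peaks in S2-AbdA cells and 18 in S2 cells. The peaks of S2-AbdA cells were narrower, with a median of 472 bp against 931 bp in S2 cells, so the covered length differed less, with 25.3 kb in S2-AbdA cells and 18.3 kb in S2 cells, of which 8.7 kb were shared. Across the rest of the arms the GAF list was also longer in S2-AbdA cells, with 9432 peaks against 5389 in S2 cells. There the peaks covered 6931.1 kb in S2-AbdA cells and 4902.5 kb in S2 cells, so coverage was larger in S2-AbdA cells on the arms as well. Their median width there was 577 bp in S2-AbdA cells and 684 bp in S2 cells. When both GAF lists were limited on the arms to the same number of highest-scoring peaks, the window held 23 in S2-AbdA cells and 18 in S2 cells. In the labels the input DNA of GAF in S2-AbdA cells carries code C, shared with HA-AbdA, while the code is D for the other 5 factors in S2-AbdA cells and B for every factor in S2 cells. The line and the input used therefore cannot be told apart in any comparison of the lines.

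Merged over both lines, the GAF peaks formed 42 regions, of which 24 (57.1%) had a peak in S2-AbdA cells only, 14 in both lines and 4 (9.52%) in S2 cells only. Elsewhere on the arms 47.6% of GAF regions had a peak in S2-AbdA cells only and 11.6% in S2 cells only. Of the 24 regions with a peak in S2-AbdA cells only, 21 lay in bun, as did 29 of all 40 GAF peaks of S2-AbdA cells. HA-AbdA overlapped 17 of these 24 (70.8%, elsewhere on the arms 51.8%), 11 of the 14 found in both lines (78.6%, elsewhere 62.4%) and 3 of the 4 in S2 cells only (75.0%, elsewhere 35.8%). These shares are read in a window chosen for dense HA-AbdA peaks, and so are the overlaps of the other factors below. The median distance of these regions to the nearest GAF peak of S2 cells was 1118.5 bp, and 11 lay within 1000 bp of one. Their median score within the S2-AbdA list was 40.5, against 118 for the best peak of the regions found in both lines, and 7 of them were above the list's median of 81.5. With lists of equal length these counts were 10 in S2-AbdA cells only (35.7%, elsewhere 21.2%) and 7 in S2 cells only (25.0%, elsewhere 24.6%).

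The GAF regions of S2-AbdA cells with the highest scores among those without a peak in S2 cells lay at 12529272 to 12530158 (score 346, rank 212 of 9530) and at 12543831 to 12544329 (score 340). The next lay at 12520984 to 12521492 (score 291), 12482813 to 12484766 (score 263) and 12542200 to 12543772 (score 172). The first overlapped the second highest HA-AbdA peak of the window, the next 3 overlapped other HA-AbdA peaks, and the last overlapped none. Between 12541793 and 12546723 the S2-AbdA list had 5 GAF peaks in a row and the S2 list had none.

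The regions with a GAF peak in S2 cells only were 4, and 3 of them lay at HA-AbdA peaks of S2-AbdA cells. At 12503991 to 12505682 (score 282, rank 438 of 7083) GAF of S2 cells covered the HA-AbdA peak at 12504002, where Rpb3 had peaks in both lines. At 12527515 to 12528678 (score 109) it lay within the highest-scoring HA-AbdA peak of the locus, and at 12467494 to 12468243 (score 33.4) it overlapped the third highest. The last, at 12520304 to 12520653 (score 16.9), lay off HA-AbdA, at a place where M1BP, dRing and E(z) each had a peak in both lines. The same locus therefore held strong GAF peaks in either line that no peak of the other line overlapped. Some lay close to a GAF peak of the other line. The distance was 594 bp for the S2-AbdA region at 12529272, 331 bp for that at 12520984 and 594 bp for the S2 region at 12527515. It was 8425 bp for the S2-AbdA region at 12482813 and 1689 bp for the S2 region at 12503991.

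E(z), the PRC2 enzyme, had 18 peaks in S2-AbdA cells and 23 in S2 cells. They formed 23 regions, of which 0 had a peak in S2-AbdA cells only, 18 in both lines and 5 (21.7%) in S2 cells only. Elsewhere on the arms 12.7% of E(z) regions had a peak in S2-AbdA cells only and 20.7% in S2 cells only. Of the 18 regions of both lines 15 overlapped HA-AbdA (83.3%, elsewhere on the arms 59.8%). The E(z) region with the highest score in both lines lay below bun at 12421624 to 12422205, with a best score of 71.4 (rank 547 of 6558) in S2-AbdA cells and 91.2 (rank 444 of 6619) in S2 cells. The 5 regions in S2 cells only lay at 12423169 to 12423588 (score 9.41), 12493318 to 12494016 (7.32), 12521042 to 12521429 (6.96), 12531301 to 12531646 (6.96) and 12436314 to 12436573 (4.66), and their ranks ran from 5432 to 6538 of 6619. They thus lay in the lower part of their list by score, and 4 of the 5 overlapped HA-AbdA (elsewhere on the arms 74.1%).

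dRing, the PRC1 subunit, had 8 peaks in S2-AbdA cells and 9 in S2 cells. Of 13 regions, 4 (30.8%) had a peak in S2-AbdA cells only, 4 (30.8%) in both lines and 5 (38.5%) in S2 cells only. Elsewhere on the arms 42.6% had a peak in S2-AbdA cells only, 33.9% in both lines and 23.5% in S2 cells only. The share of regions found in both lines was thus near that on the arms. The 4 regions in S2-AbdA cells only lay at 12421669 to 12422020 (score 14), 12543297 to 12543560 (11.0), 12546388 to 12546563 (9.36) and 12420804 to 12421116 (6.79). The 5 regions in S2 cells only lay at 12404400 to 12404625 (score 15.8), 12475372 to 12475582 (14.1), 12422379 to 12422598 (11.0), 12527619 to 12528052 (10.3) and 12529455 to 12530013 (9.1). All 5 regions in S2 cells only overlapped HA-AbdA, as did 71.3% of such regions elsewhere on the arms, and 2 of them lay on its highest-scoring pair of peaks. The S2-AbdA region at 12421669 and the S2 region at 12422379 lay 359 bp apart. The other regions of 1 line lay 1263 bp or more from a dRing peak of the other line. The strongest dRing peak of S2 cells in the window, at 12520304 to 12520558 (score 54.0), also had a peak in S2-AbdA cells and lay off HA-AbdA.

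Rpb3 had 25 peaks in each line and few regions found in 1 line only. Of 27 regions, 22 were found in both lines, 2 (7.41%) in S2-AbdA cells only and 3 (11.1%) in S2 cells only. Elsewhere on the arms 11.7% of Rpb3 regions had a peak in S2-AbdA cells only and 19.1% in S2 cells only. The regions in S2-AbdA cells only lay at 12427053 to 12427772 (score 165, rank 844 of 8896), below bun, and at 12529497 to 12529996 (score 8.84), under the second highest HA-AbdA peak. The regions in S2 cells only lay at 12459802 to 12461557 (score 137), 12545653 to 12545980 (score 16.5) and 12409983 to 12410253 (score 12). Some of these regions lay close to an Rpb3 peak of the other line. The distance was 245 bp for the S2-AbdA region at 12427053. It was 227 bp and 174 bp for the S2 regions at 12459802 and 12545653. For the regions at 12409983 and 12529497 it was 4661 bp and 9738 bp. In bun, the highest-scoring Rpb3 region of both lines lay at 12507465 to 12508331, with a score of 189 in the S2-AbdA list and of 198 in the S2 list, together with M1BP, GAF, E(z) and HA-AbdA.

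Polymerase was denser below bun than within it. Rpb3 peaks covered 19.4% of the 55 kb below bun in S2-AbdA cells and 19.6% in S2 cells. Within bun they covered 8.7% in S2-AbdA cells and 11.8% in S2 cells. On the rest of the arms they covered 5.35% in S2-AbdA cells and 6.51% in S2 cells, so both stretches lay above the arms. The Ser2P peaks, which are broad, covered 36.6% of the stretch below bun in S2-AbdA cells and 9.49% in S2 cells, but only 4.91% of bun in S2-AbdA cells and 3.31% in S2 cells. Ser2P covered 6.72% of the rest of the arms in S2-AbdA cells and 2.6% in S2 cells. Its coverage was thus larger in S2-AbdA cells on the arms as well. By these stretches HA-AbdA had the opposite order, with 23.2% below bun and 48.1% in it. The contrast did not hold bin by bin. At 20 to 30 kb, below bun, HA-AbdA covered 68.6%. There Rpb3 covered 34.9% in S2-AbdA cells and 29.8% in S2 cells, and Ser2P 70.7% and 2.82%. Over the 16 bins the rank correlation of HA-AbdA was -0.07 and 0.10 with Rpb3 of S2-AbdA and S2 cells, and -0.08 and 0.09 with Ser2P.

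Most of the Ser2P difference below bun lay in a few wide peaks of S2-AbdA cells, at 12428736 to 12437194 and at 12417455 to 12423543, where S2 cells had narrow peaks of 645 bp and 282 bp. Ser2P had 9 peaks in S2-AbdA cells and 6 in S2 cells, which formed 6 regions found in both lines, 3 (33.3%) in S2-AbdA cells only and 0 in S2 cells only. Elsewhere on the arms 56.7% had a peak in S2-AbdA cells only and 1.53% in S2 cells only. The 3 regions in S2-AbdA cells only lay at 12424512 to 12424845 (score 4.71), 12535042 to 12535878 (4.06) and 12425805 to 12427733 (3.28), and all 9 regions overlapped HA-AbdA (elsewhere on the arms 58.3%). The last of the 3 lay on the Rpb3 region at 12427053, which was also without a peak in S2 cells. With lists of equal length Ser2P had 4 peaks in S2-AbdA cells and 6 in S2 cells, and 0 regions were in S2-AbdA cells only and 2 in S2 cells only. The larger number in S2-AbdA cells thus rests on the longer list.

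M1BP had the fewest peaks in S2-AbdA cells, 7, and had 11 in S2 cells. Of 12 regions, 1 (8.33%) had a peak in S2-AbdA cells only, 6 in both lines and 5 (41.7%) in S2 cells only. Elsewhere on the arms 7.44% had a peak in S2-AbdA cells only and 18.3% in S2 cells only. With lists of equal length 3 of 10 M1BP regions (30.0%, elsewhere 11.9%) had a peak in S2 cells only. The strongest M1BP region lay at the upper end of bun at 12546169 to 12546981, with a score of 264 (rank 183 of 6639) in S2-AbdA cells and 295 (rank 307 of 7157) in S2 cells, on the HA-AbdA peak at 12546086. The region at 12507432 to 12508566 had a score of 92.0 in S2-AbdA cells and 136 in S2 cells. The region in S2-AbdA cells only lay at 12436288 to 12436533 (score 16.6). The 5 regions in S2 cells only lay at 12434310 to 12434978 (score 34.2), 12511169 to 12511908 (24.8), 12427555 to 12427826 (18.5), 12547080 to 12547301 (15.2) and 12467664 to 12468166 (13.9). Their ranks ran from 4581 to 6579 of 7157, and 2 of the 5 overlapped HA-AbdA (elsewhere on the arms 61.4%). Those at 12434310 and 12547080 lay 176 bp and 122 bp from an M1BP peak of S2-AbdA cells, and the others lay 2611 bp or more from one.

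**Figure D4:**
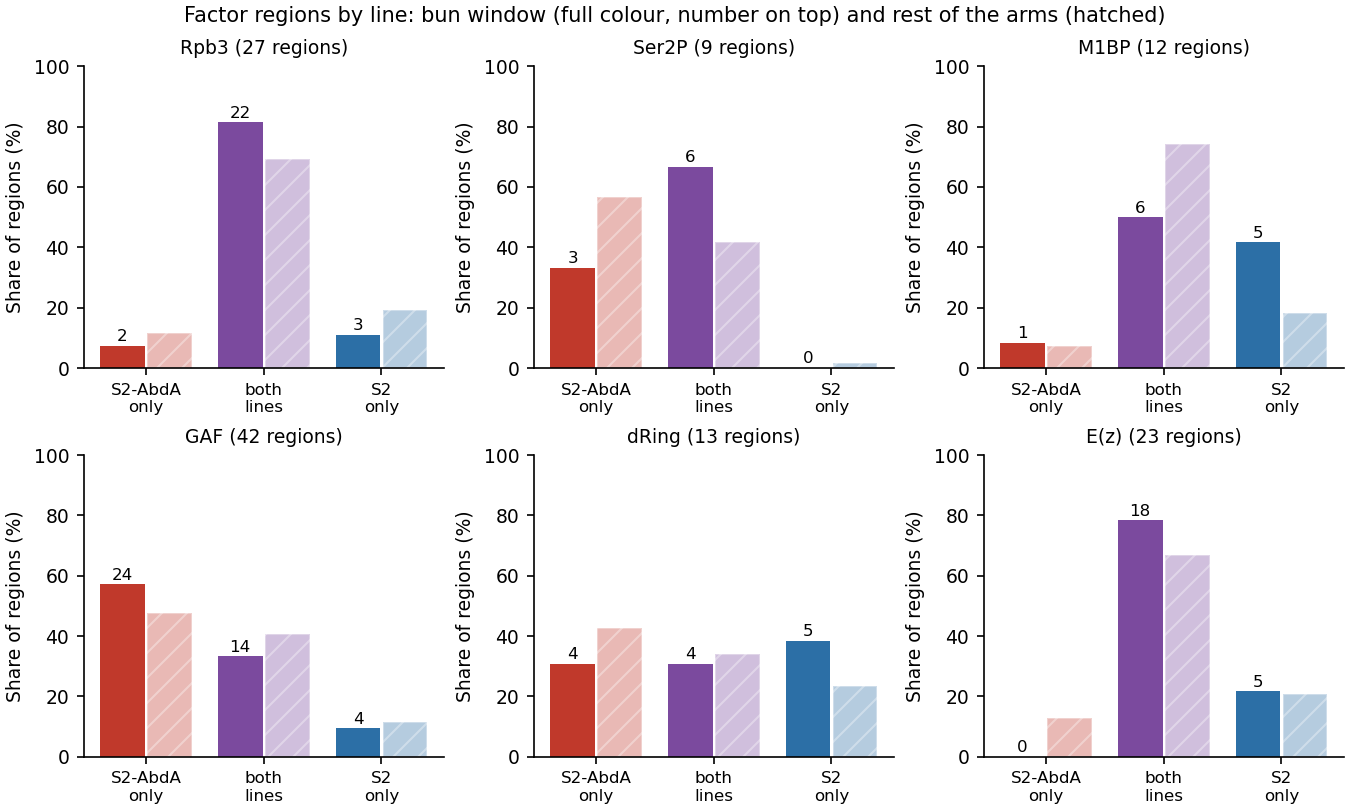
Share of merged regions of each factor (vertical axis, percent) with a peak in S2-AbdA cells only, in both lines or in S2 cells only, for the bun window (full colour, with the number of regions on top) and for the rest of the 6 arms (pale, hatched). For GAF 24 of 42 regions had a peak in S2-AbdA cells only, and for E(z) 0 of 23 did.

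The lines were also compared by the bases their peaks shared. As a fraction of all bases covered in either line, the bases covered in both were 0.72 for Rpb3 in the window and 0.59 on the rest of the arms. The fraction was 0.67 for E(z) (rest of the arms 0.70), 0.53 for M1BP (0.66), 0.25 for GAF (0.40), 0.22 for Ser2P (0.34) and 0.18 for dRing (0.41). It was thus above the value on the arms for Rpb3, near it for E(z) and below it for M1BP, GAF, Ser2P and dRing, with no test of the difference. Counted by regions instead, E(z) had 78.3% in both lines (rest of the arms 66.7%) and Ser2P 66.7% (41.8%). Both, like Rpb3 (81.5%, rest of the arms 69.2%), thus lay above the arms by regions. M1BP and GAF lay below the arms by regions, and dRing lay near them. Ser2P covered 24.7 kb in S2-AbdA cells and 8.3 kb in S2 cells, and the shared 5.9 kb were 24.0% of its bases in S2-AbdA cells and 71.8% of those in S2 cells.

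For scale, the arms were also divided end to end into 749 other stretches of 160 kb. The window had more HA-AbdA peaks than any of them, as its choice implies, since the highest of them had 41 and their median was 13. For factors that the choice did not use, the E(z) list of S2-AbdA cells had 18 peaks in the window and at least as many in 8 other stretches, and that of S2 cells had 23 in the window and at least as many in 3. GAF of S2-AbdA cells, with 40, was matched or passed in 6 stretches, and GAF of S2 cells, with 18, in 28. Rpb3, with 25 in each line, was matched or passed in 63 stretches in S2-AbdA cells and in 71 in S2 cells. Ser2P was matched or passed in 112 stretches in S2-AbdA cells and in 45 in S2 cells, and dRing in 187 in S2-AbdA cells and in 68 in S2 cells. M1BP was matched or passed in 347 stretches in S2-AbdA cells, near the middle of its distribution, and in 191 in S2 cells. These are ranks of a chosen window and not tests, and many of the factor peaks overlap the HA-AbdA peaks by which the window was chosen: 30 of the 40 GAF peaks of S2-AbdA cells, 14 of the 18 of S2 cells, 15 of the 18 E(z) peaks of S2-AbdA cells and 19 of the 23 of S2 cells.

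**Figure D5:**
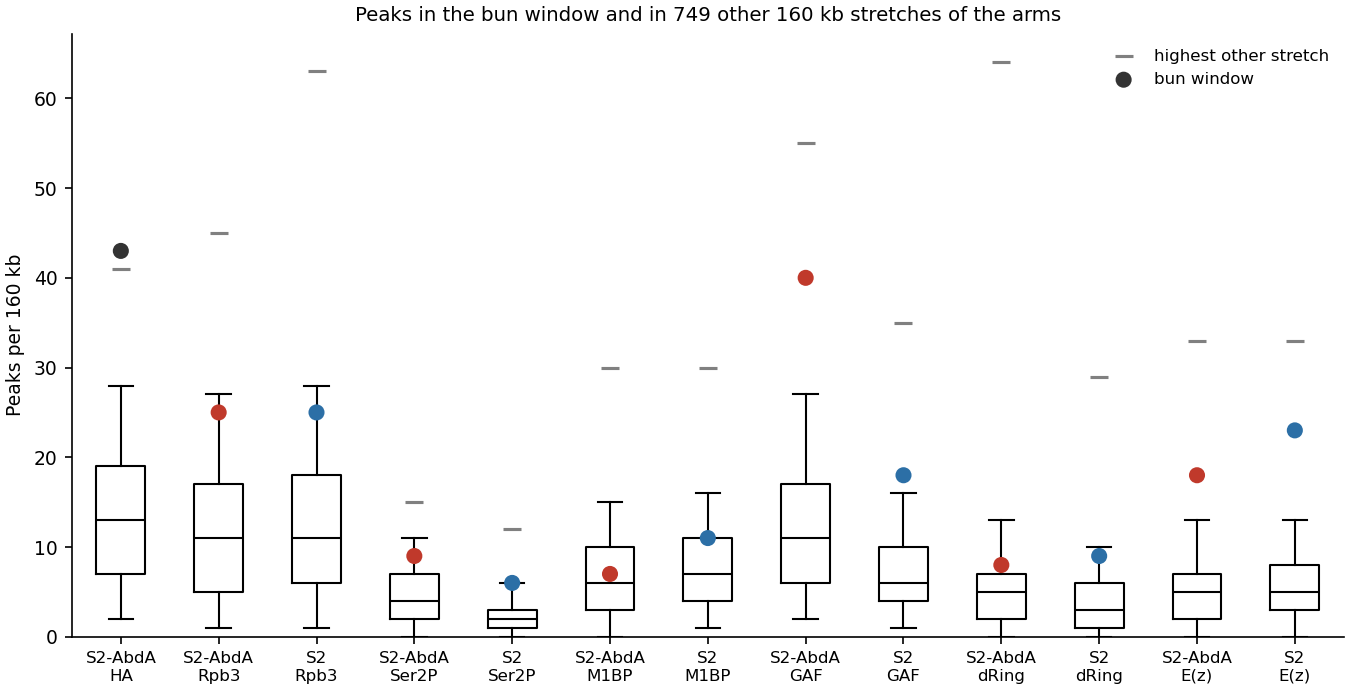
Number of peaks per 160 kb (vertical axis) in each list. Coloured points are the bun window (black for HA-AbdA, red for S2-AbdA cells, blue for S2 cells), boxes give the median and quartiles of 749 other stretches of the arms, whiskers the central 90% and dashes the highest. GAF of S2-AbdA cells (40) and E(z) of S2 cells (23) lie above the whiskers, and M1BP of S2-AbdA cells (7) lies within its box.

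Single HA-AbdA peaks of the locus overlapped most of the factor lists, which does not show that the factors shared a site. At 12507304 to 12508865, within bun, the HA-AbdA peak had a score of only 26.7 but overlapped Rpb3, M1BP, GAF and E(z) in both lines, at 8 of the 12 factor lists. The wide peak at 12458976 to 12464348 (score 55.5), in the lower part of bun, overlapped Rpb3, Ser2P, GAF and E(z) in both lines, also 8 of the 12. It is 5373 bp wide, and its factor peaks did not all overlap each other. In S2-AbdA cells an Rpb3 peak ended at 12459575 and the Ser2P peak began at 12460894. The peak at 12403359 to 12405090 overlapped 11 of the 12, all but dRing of S2-AbdA cells. At the other extreme the long peak at 12469473 to 12472087 (score 20.1), 2615 bp wide, overlapped no factor.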

How the data were processed

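ChIP-seq peak lists of S2-AbdA and S2 cells were analysed, 1 per antibody and line, which the labels name for both replicates together. The sources used here do not give the calling settings or how replicates were combined. Reads were aligned with BWA 0.7.12 and peaks called with MACS2 on build dm3, per the submitters' processing notes. The Ser2P lists hold broad peaks, per the peak names in the deposited lists. Each deposited score is a positive number of unstated unit, and the deposited starts and ends are the only other values used. The dm3 build was checked on the largest peak end of 3R, 27898841, where Release 6 has 32079331 bp, so Release 6 served only for gene names, order and strand, and coordinates were not mixed. The negative control with the HA antibody and the 6 inputs were not analysed here.

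Tools were pandas 2.3.3 and numpy 2.4.6 under Python 3.11.15, with matplotlib 3.10.9 for figures. A peak belonged to the window at an overlap of 1 bp or more, and the same overlap counted as shared. For each factor the lists of both lines were merged into regions. Arm lengths were the largest end in any list, and the arms were 2L, 2R, 3L, 3R, X and 4. Starts are printed 1-based. The code was tested on simulated data and checked against bedtools 2.31.1 in 25 values, of which 0 differed. Named peaks were the 10 HA-AbdA peaks of highest score, the widest, the 5 highest on no factor, and up to 5 regions per factor and line found in that line only. The peaks in the last paragraph of results, the strongest region of a factor and the edges were chosen with their values in view. Alternatives tried were an overlap of 50% of the shorter peak, only the 50% of each list with higher scores, equal list lengths on the arms, membership by peak centre, and bun alone. The window, bounds and comparisons were chosen with earlier results of these data known.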

Additional observations from a re-analysis of the deposited data

How the results depend on the processing

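No paired analysis was possible because each list joins both replicates of its antibody and line, and for the same reason no replicate could be left out. Of 87 alternative counts, 55 kept within 1.5 times of the reported count and 32 moved. Counting HA-AbdA peaks by their centre, or in bun alone, kept their number within that range, and in bun alone their coverage was 48.1%. Requiring an overlap of 50% of the shorter peak moved no count by more than 1.5 times. With lists of equal length, GAF had 23 peaks in S2-AbdA cells, 10 regions in S2-AbdA cells only and 7 in S2 cells only. Ser2P then had 4 peaks in S2-AbdA cells, 0 regions in S2-AbdA cells only and 2 in S2 cells only, and M1BP had 3 regions in S2 cells only. The number of GAF regions in S2-AbdA cells only thus depends on the length of its list.

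With the higher-scoring 50% of each list HA-AbdA had 22 peaks and covered 22.7%. In S2-AbdA cells the window then held 14 Rpb3, 1 Ser2P, 4 M1BP, 16 GAF, 2 dRing and 5 E(z) peaks. In S2 cells it held 16 Rpb3, 0 Ser2P, 4 M1BP, 10 GAF, 4 dRing and 11 E(z) peaks. HA-AbdA peaks on a factor of S2-AbdA cells numbered, of these 22, 4 for Rpb3 (18.2%, elsewhere on the arms 36.6%), 1 for Ser2P (4.55%, elsewhere 11.9%), 2 for M1BP (9.09%, elsewhere 22.9%), 8 for GAF (36.4%, elsewhere 34%), 1 for dRing (4.55%, elsewhere 8.92%) and 3 for E(z) (13.6%, elsewhere 10.1%). On a factor of S2 cells they numbered 5 for Rpb3 (22.7%, elsewhere 38.8%), 0 for Ser2P (elsewhere 1.62%), 2 for M1BP (9.09%, elsewhere 27.6%), 5 for GAF (22.7%, elsewhere 23.6%), 1 for dRing (4.55%, elsewhere 7.62%) and 6 for E(z) (27.3%, elsewhere 10.6%). Halving a list lowers these counts by construction. The unknown depth of the lists limits every statement on a peak found in 1 line only.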
